A study of Rattus norvegicus with 8 samples.

Results

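The enzymes of glycolysis, the pentose phosphate pathway and the tricarboxylic acid (TCA) cycle were followed in rat thymocytes, the developing T cells of the thymus, after treatment with the synthetic glucocorticoid dexamethasone (Dex). Members were chosen by the gene name that the array gives each probe, from a list of 40 genes. Of these, 39 were found, 22 of glycolysis, 4 of the 5 of the pentose phosphate pathway and 13 of the TCA cycle, on 50 of the 41012 non-control probes. The array name alone gave 35 of them, and a name with a suffix removed gave Pdk3. The RefSeq accession of the probe gave Idh2, Ogdh and Mdh2, which the array lists under older names. No probe carried the name or accession of Pgd, the gene of 6-phosphogluconate dehydrogenase.

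Thymocytes came from adrenalectomized male Sprague-Dawley rats, weighing 60 to 75 g per the study's methods, which give no age. The thymi of 3 rats were pooled for a preparation, and the cells were cultured for 6 hours without hormone (Control, 4 arrays) or with 100 nM Dex (4 arrays). All cells, Control included, therefore came from animals without adrenal glands and were kept in culture, and they were unsorted suspensions of whole thymus. The methods state 3 biological replicates per group, whereas 4 arrays per group carry replicate labels, so it is not known which arrays stand for separate preparations, and p-values measure the spread between these arrays.

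Glycolysis splits glucose into pyruvate. Hexokinase (Hk genes) traps glucose in the cell as its phosphate, and phosphofructokinase 1 (Pfkl, Pfkm, Pfkp) catalyzes the main controlled step further down. The pentose phosphate pathway branches off after hexokinase and yields NADPH and ribose 5-phosphate for nucleotides. Pyruvate that enters mitochondria is turned into acetyl-CoA by the pyruvate dehydrogenase complex, which the kinases Pdk1 and Pdk3 switch off, and acetyl-CoA feeds the TCA cycle. In T cells, glucose use is known to rise with proliferation, and glucocorticoids are known to kill thymocytes and to limit glucose use in lymphoid cells.

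Each level below is the log2 of the background-subtracted spot signal after quantile normalization, and it can be compared between arrays for a probe but not between probes. A gene was called changed by limma (a linear model with variances moderated across probes) at a Benjamini-Hochberg adjusted p under 0.05 over all probes. The signal to noise statistic of the study's methods, the difference of group means over the sum of group SDs, served as a looser second test, called at a one-tailed permutation p of at most 0.01 and a fold change of at least 1.2. Where a gene had several probes, the brightest stood for it. These are bulk samples normalized to one common distribution, so fewer cells that express a gene and less RNA of it per cell cannot be told apart.

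By limma, 3 of the 39 genes changed. Pdha1 (catalytic subunit of pyruvate dehydrogenase) and Pfkp (the platelet-type phosphofructokinase) rose, and Rpia (ribose 5-phosphate isomerase) fell. That is 7.69% of the members, beside 0.778% of all probes (0.563% higher and 0.215% lower in Dex) and 1.23% of the 23999 probes well above background on all 8 arrays, as all 39 members were. With the replicate number as a block, Pdha1 alone was called (adjusted p = 0.0311), at a background of 0.198% of all probes, and the adjusted p was 0.120 for Pfkp and 0.0703 for Rpia. The signal to noise statistic called 9 members, the same 3 with Hk2, Gpi, Pfkm, Aldoa, Taldo1 and Pdhb. The share is 23.1% of the members, beside 6.79% of all probes and 10% of those well above background on all arrays. The members were chosen with earlier results of these data known, so these shares are a description and not a test of the list.

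The probes of the 3 genes that changed are given here because their values rest on 1 probe each. They are 60-base oligonucleotides, placed by the array's annotation on build rn3, and are written 5′ to 3′ in lower case.
Pfkp, chr17:74833468-74833527, plus strand: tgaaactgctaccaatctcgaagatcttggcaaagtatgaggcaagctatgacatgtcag
Rpia, chr4:104185283-104185342, minus strand: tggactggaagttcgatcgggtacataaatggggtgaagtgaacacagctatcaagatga
Pdha1, chrX:55966729-55966788, plus strand, first 30 bases: atccaaacagaaatgtaaatgtgctgtgaa
The Pfkp and Rpia probes each hold 1 reading frame without a stop codon, whereas all 3 frames of the Pdha1 probe hold a stop codon. In the RefSeq table of build GRCr8, Pdha1 overlaps Map3k15, a kinase gene for which no probe was found by name or accession, and signal from the 2 genes was not told apart here. No other probe was placed within 20 kb of the Pdha1 probe. The nearest neighbor of Pfkp, the protease gene Pitrm1, differed by 0.19 on the log2 scale and was not called (limma adjusted p = 0.731). Rpia is annotated on the array from a predicted transcript, and in GRCr8 it overlaps an snRNA gene without a probe here. The 1 other probe placed within 20 kb of it, for an unnamed transcript, differed by -0.30 (limma adjusted p = 0.831).

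**Figure D1:**
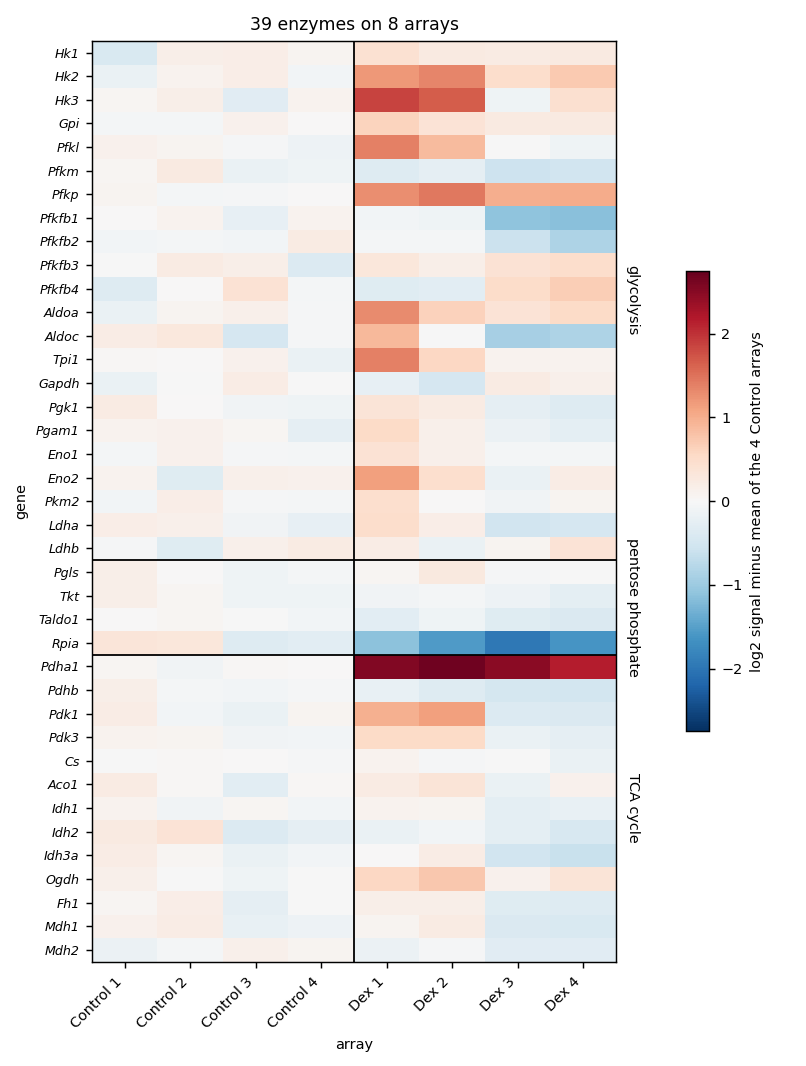
Log2 signal of each of the 39 genes (rows, grouped by pathway) on each of the 8 arrays (columns), minus the mean of the 4 Control arrays of that gene. Pdha1 is high on all 4 Dex arrays and Rpia low on all 4, whereas many other rows are higher on Dex 1 and Dex 2 than on Dex 3 and Dex 4.

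The 3 pathways differed in how their members lay. In glycolysis, 15 of 22 genes had a higher mean in Dex and 7 a lower one, with a median log2 fold change of 0.13. In the pentose phosphate pathway 1 of 4 was higher and 3 were lower, with a median of -0.21. In the TCA cycle 5 of 13 were higher and 8 lower, with a median of -0.07. Over all probes the median was 0.00033, and 20513 of 41012 were higher in Dex. These medians are a description, and differences between the pathways were not tested. All 4 Dex arrays lay above all 4 Control arrays for 6 members and below them for 4, and the groups overlapped for the other 29. The share of non-overlapping members is 25.6%, beside 9.11% of all probes and 13.2% of those well above background on all arrays. This share too is a description, of a list chosen with earlier results of these data known.

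**Figure D2:**
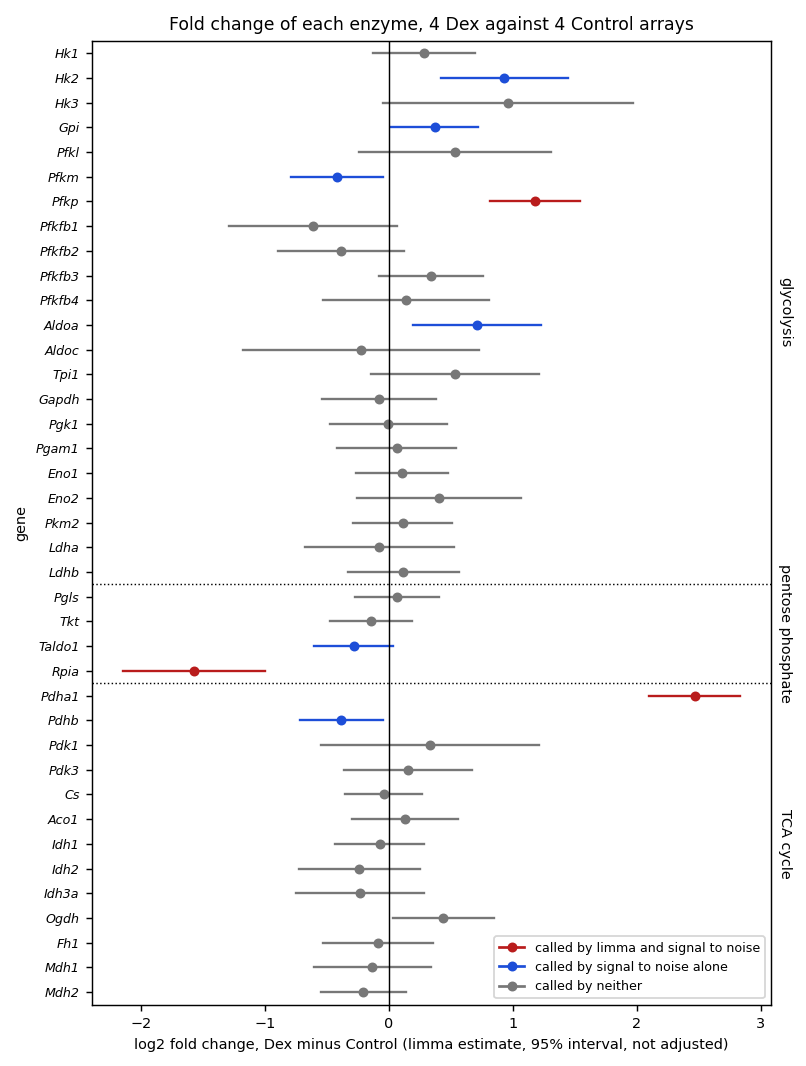
Log2 fold change of each gene, Dex minus Control (points, limma estimate over 4 arrays per group) with its 95% interval (lines, not adjusted for multiple testing), grouped by pathway. Pdha1 at 2.47, Pfkp at 1.18 and Rpia at -1.57 are called by limma, 6 further genes by the signal to noise statistic alone, and most other intervals include 0.

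Of the hexokinases, which phosphorylate glucose on entry, all 3 had higher means in Dex and none was called by limma. Hk2, the inducible form bound to mitochondria, measured 4.39, 4.67, 4.76 and 4.51 on Control arrays 1 to 4 and 5.77, 5.92, 5.08 and 5.30 on Dex arrays 1 to 4. The Dex values did not overlap with the Control values but split into a higher pair (Dex 1 and 2) and a lower pair. Its log2 difference was 0.93 (SE 0.22, n = 4 per group, limma adjusted p = 0.144), and the signal to noise statistic called it. With background correction by normexp this difference was 0.30.

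Hk1, the housekeeping form, measured 11.77, 12.34, 12.36 and 12.26 in Control and 12.59, 12.43, 12.41 and 12.43 in Dex. The groups did not overlap by a narrow margin, and Control 1 lay well below the other Control arrays. The log2 difference of 0.28 (SE 0.18, n = 4 per group) did not pass either test (limma adjusted p = 0.656), and without Control 1 it was 0.15. Hk3, the form of myeloid cells, had a similar difference to Hk2 (0.96) but an SE of 0.44. It was at 6.95 and 6.76 on Dex 1 and 2 and at 4.98 and 5.53 on Dex 3 and 4, beside 4.78 to 5.25 in Control, so its groups overlapped.

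Gpi (glucose 6-phosphate isomerase), which opens the glycolytic branch after hexokinase, measured 12.93, 12.93, 13.11 and 13.01 in Control. In Dex it was at 13.61, 13.38, 13.24 and 13.24, above every Control array. The log2 difference was 0.37 (SE 0.15, limma adjusted p = 0.438), called by the signal to noise statistic alone. Its second probe gave a difference of 0.26 in the same direction.

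Phosphofructokinase 1, the tetrameric enzyme of the main controlled step, is built from a liver (Pfkl), a muscle (Pfkm) and a platelet (Pfkp) type subunit. Pfkp measured 9.45, 9.31, 9.32 and 9.37 in Control and 10.63, 10.80, 10.35 and 10.37 in Dex. Control arrays lay within a narrow band, and the lowest Dex array was well above it. Pfkp rose 2.26-fold, by 1.18 on the log2 scale (SE 0.16, n = 4 per group, limma adjusted p = 0.0185). The call was lost with 75th percentile scaling (adjusted p = 0.179) and when any 1 Control array or Dex 1 was left out (0.0663 to 0.0938), with an adjusted p from 0.0018 to 0.771 over all 20 alternatives. Within the fuller scan day, which holds 3 arrays of each group on a slide per group, the difference was 1.27 (limma adjusted p = 0.111). The other scan day holds only 1 array of each group.

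Pfkm went the other way on each array, at 11.02, 11.20, 10.79 and 10.85 in Control and 10.61, 10.73, 10.41 and 10.45 in Dex. The Dex arrays lay just below the Control arrays, with a log2 difference of -0.42 (SE 0.16, limma adjusted p = 0.405), and the signal to noise statistic called it. Pfkl had a log2 difference of 0.54 (SE 0.34), carried by 9.18 and 8.68 on Dex 1 and 2 (0.25 without Dex 1), while Dex 3 and 4 at 7.79 and 7.69 fell in the Control range of 7.66 to 7.91.

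**Figure D3:**
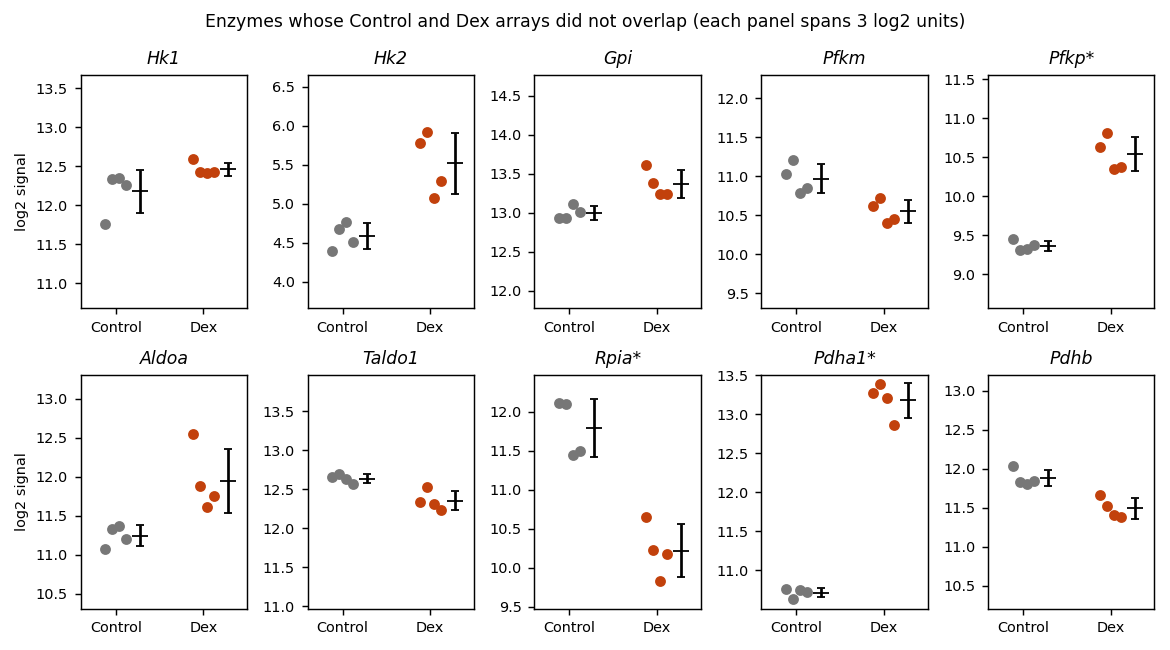
Log2 signal on each array (points) of the 10 genes whose Control and Dex arrays did not overlap, with the group mean and SD (n = 4 per group) to the right of each group. Every panel spans 3 log2 units, an asterisk marks the 3 genes called by limma, and the gap between groups is widest for Pdha1.

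Because isozymes of one step can respond differently, the within-array log2 difference of each pair of isozymes was compared between groups by an exact two-sided permutation test over the 70 assignments of arrays, whose smallest p is 0.0286. With this smallest p, adjusted values can pass only where most of the pairs reach it. None of 18 pairs passed after Benjamini-Hochberg adjustment, and 3 pairs reached the smallest p (exact permutation p = 0.0286, adjusted p = 0.171 for each). The Pfkm minus Pfkp difference was 1.60 ± 0.20 (SD, n = 4) log2 units in Control and 0.01 ± 0.07 in Dex, a change of -1.60. The 4 Dex values, from -0.08 to 0.07, lay far from the Control values of 1.47 to 1.89. The Pfkl minus Pfkm difference changed by 0.95, from -3.17 ± 0.13 to -2.21 ± 0.60 (SD, n = 4). Hk1 minus Hk2 changed by -0.65, from 7.60 ± 0.16 to 6.95 ± 0.36 (SD, n = 4). The differences of the other 15 pairs overlapped between groups. The sizes are changes in a ratio between probes, and the ratio itself has no scale that compares the isozymes' amounts.

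**Figure D4:**
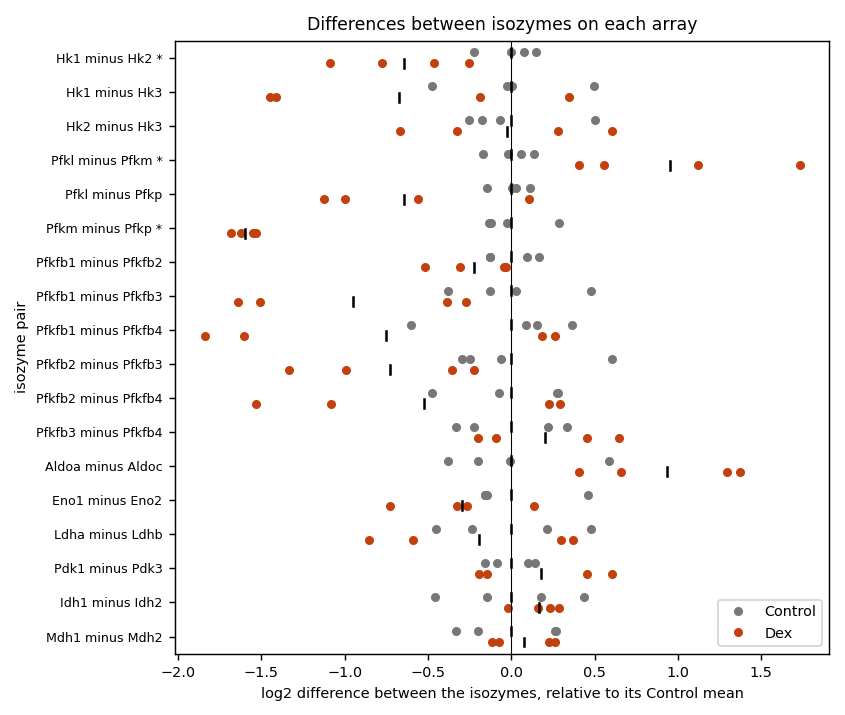
Log2 difference between the isozymes of each of 18 pairs on each array (points), relative to its mean on the 4 Control arrays (bars are group means, n = 4 arrays). Asterisks mark the 3 pairs whose groups do not overlap, and the 4 Dex values of Pfkm minus Pfkp cluster near -1.60.

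The bifunctional enzymes Pfkfb1 to Pfkfb4 make and remove fructose 2,6-bisphosphate, the activator of phosphofructokinase 1. None of the 4 was called by either test, and their log2 differences ran from -0.61 (Pfkfb1) to 0.34 (Pfkfb3). Pfkfb1, with the largest drop of a glycolytic mean, measured 7.76, 7.85, 7.53 and 7.84 in Control and 7.67, 7.63, 6.64 and 6.59 in Dex. Dex 1 and 2 lay in the Control range, and only Dex 3 and 4 were below it (SE 0.29, limma adjusted p = 0.531). The 2 probes of Pfkfb2 went in opposite directions, at -0.39 for the brightest and 0.74 for the other, so no direction can be given for it.

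Below that step, aldolase A (Aldoa), which cleaves the 6-carbon sugar, was the 1 enzyme whose brightest probe the signal to noise statistic called. It measured 11.07, 11.32, 11.37 and 11.21 in Control and 12.54, 11.89, 11.62 and 11.76 in Dex. All Dex arrays were above all Control arrays, and Dex 1 stood highest. The log2 difference was 0.71 (SE 0.22, limma adjusted p = 0.288). Tpi1 (triose phosphate isomerase), at 0.54, and the neuronal enolase Eno2, at 0.40, had overlapping groups, and without Dex 1 they were at 0.25 and 0.16. Gapdh, Pgk1, Pgam1, Eno1, Pkm2 (pyruvate kinase), Ldha and Ldhb (the lactate dehydrogenase subunits) all lay between -0.08 and 0.12, within their SEs of 0.16 to 0.26, and the brain-type aldolase Aldoc was at -0.22 with an SE of 0.41. The second Gapdh probe differed in sign from the first, at 0.11 against -0.08. Gapdh, Pgam1 and other abundant glycolytic genes have many processed copies in rodent genomes, and the 2 Pgam1 probes, at 0.06 and 0.28, are placed on different chromosomes (the dimmer was called by the signal to noise statistic, with overlapping groups), so their values may include such copies.

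In the pentose phosphate pathway the 1 gene called by limma belongs to the non-oxidative branch. Rpia, which makes ribose 5-phosphate, measured 12.12, 12.11, 11.45 and 11.50 on Control arrays 1 to 4 and 10.66, 10.23, 9.83 and 10.17 on Dex arrays 1 to 4. No Dex array reached the lowest Control array, though Controls 1 and 2 lay above Controls 3 and 4. Rpia fell by 1.57 on the log2 scale (SE 0.25, n = 4 per group), which is 2.97-fold lower in Dex (limma adjusted p = 0.0363). This call was lost when any 1 of the 8 arrays was left out, with an adjusted p between 0.0565 and 0.149, while the log2 difference lay between -1.71 and -1.44. It was also lost with 75th percentile scaling (limma adjusted p = 0.187) and with the scan day as a block (0.0806). Within the fuller scan day the difference was -1.33 (limma adjusted p = 0.177). The limma adjusted p ranged from 0.00584 to 0.573 over all 20 alternatives.

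Taldo1 (transaldolase), of the same branch, measured 12.66, 12.70, 12.63 and 12.56 in Control and 12.34, 12.53, 12.31 and 12.24 in Dex. The Dex arrays lay below all Control arrays, Dex 2 by the smallest gap. The log2 difference was -0.28 (SE 0.14, limma adjusted p = 0.541), and the signal to noise statistic called it. Tkt (transketolase) was at -0.14 with overlapping groups. Pgls (6-phosphogluconolactonase), of the oxidative branch, had the highest log2 difference of the pathway at 0.06. It measured 11.49, 11.36, 11.21 and 11.29 in Control and 11.38, 11.60, 11.30 and 11.33 in Dex, with the groups interleaved. The array describes 2 probes only as similar to 6-phosphogluconate dehydrogenase, the product of Pgd, and these differed by 0.03 (limma adjusted p = 0.969) and 0.17 (limma adjusted p = 0.826).

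At the entry to the TCA cycle, Pdha1 showed the largest change of any member. Its probe measured 10.76, 10.63, 10.75 and 10.72 on Control arrays 1 to 4 and 13.27, 13.39, 13.21 and 12.87 on Dex arrays 1 to 4. The Control values were nearly equal, and each Dex array was more than 2 log2 units above them. Pdha1 rose 5.53-fold, by 2.47 on the log2 scale (SE 0.16, n = 4 per group, limma adjusted p = 0.000655). It was called in 19 of 20 alternative fits, with a log2 difference from 2.32 to 2.61. The exception took the slide as a fixed block, so that the fit compares Dex 3 with Control 1 and nothing else, and gave 2.45 (adjusted p = 0.254, in a range from 5.3e-05 over the alternatives). Within the fuller scan day the difference was 2.47 (limma adjusted p = 0.0299).

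The partner subunit of the same enzyme did not follow. Pdhb, which forms the heterotetramer with the Pdha1 product, measured 12.03, 11.83, 11.81 and 11.84 in Control and 11.67, 11.53, 11.41 and 11.38 in Dex. All Dex arrays were below all Control arrays, with a log2 difference of -0.38 (SE 0.14, limma adjusted p = 0.391), called by the signal to noise statistic. Of the other components of the complex, Dlat (the acetyltransferase core) differed by -0.36 (limma adjusted p = 0.667) and Dld (dihydrolipoamide dehydrogenase) by 0.01 (limma adjusted p = 0.983). These 2 were looked at after the Pdha1 value was seen. The inhibitory kinases Pdk1 and Pdk3 had log2 differences of 0.33 and 0.15. Pdk1 was at 8.57 and 8.72 on Dex 1 and 2 but at 7.23 and 7.21 on Dex 3 and 4, on both sides of its Control values of 7.42 to 7.81, and leaving out 1 Dex array moved its difference between 0.07 and 0.57.

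In the cycle itself neither test called any enzyme. Cs, Aco1, Idh1, Idh2, Idh3a, Fh1, Mdh1 and Mdh2 lay between -0.24 (Idh2) and 0.13 (Aco1). Ogdh, the first subunit of the 2-oxoglutarate dehydrogenase complex, was the highest at 0.44 (SE 0.18, limma adjusted p = 0.427). Its lowest Dex array, at 6.88, lay just under the highest Control array, at 6.90. The second Cs probe gave 0.40, against -0.04 for the brighter one.

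The 4 Dex arrays were not alike in these genes. For 33 of the 39 members both Dex 1 and Dex 2 lay above both Dex 3 and Dex 4, and for 3 they lay below. Among probes well above background on all arrays the corresponding shares were 58.8% and 24.6%, and over all probes 48.3% and 31.0%, beside 84.6% and 7.69% of the members. The median deviation of the 22 glycolytic genes from their Control means was 0.48 on Dex 1 and 0.18 on Dex 2, but -0.03 on Dex 3 and 0.12 on Dex 4. For the 13 TCA cycle genes it was 0.11 and 0.20 on Dex 1 and 2 and -0.28 and -0.31 on Dex 3 and 4. The sign of these medians thus depends on which Dex arrays are read, except in the 4 pentose phosphate genes, where it was negative on all 4. The SD was larger in Dex than in Control for 32 of 39 members (82.1%), close to the 78.4% of probes well above background on all arrays. Dex 1 and 2 also had fewer probes well above background, 26496 and 24937, than Dex 3 and 4, 33301 and 33426, while Control arrays had 28684 to 34488. Dex 3 and Control 1 shared a slide and a scan day that no other array had. Dex 1, 2 and 4 shared another slide, and Control 2, 3 and 4 one more. Slide and group thus cannot be told apart among those 6. The part of these differences in the results was not tested.

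Genes around the 3 pathways were read from lists of other enzymes, transporters and regulators, and limma called 1 of the 87 found (1.15%, beside 0.778% of all probes and 1.23% of those well above background on all arrays). The signal to noise statistic called 11 (12.6%, beside 6.79% and 10%), of which 3 were other glycolytic enzymes, 3 transporters and 5 regulators. Egln3, a prolyl hydroxylase that marks the hypoxia-inducible factor for degradation and is itself its target, measured 9.48, 9.62, 9.65 and 9.30 in Control and 10.81, 10.63, 10.37 and 10.34 in Dex. All Dex arrays were above the Control arrays, and Egln3 rose by 1.03 on the log2 scale (SE 0.17, limma adjusted p = 0.0446). Its call was lost with the replicate block (adjusted p = 0.155), with 75th percentile scaling (0.260) and without any 1 of the 8 arrays (0.0709 to 0.171), in a range of 0.00505 to 0.771 over 20 alternatives. limma called no gene among 22 other glycolytic and gluconeogenic enzymes, 8 other pentose phosphate enzymes, 25 other TCA cycle and pyruvate dehydrogenase genes and 14 transporters of glucose and lactate. The glucose transporter genes Slc2a1 and Slc2a3 were at 0.19 and -0.13, each with overlapping groups. Pdk4, a kinase known as a glucocorticoid target in muscle, was at -0.58 and was well above background on 3 Control and 2 Dex arrays, so it has no firm value here.

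Of the 87 genes, 13 had groups that did not overlap (14.9%, beside 9.11% of all probes and 13.2% of those well above background on all arrays), and of those not called by limma the 10 with the largest differences follow. Slc16a1, the main lactate and pyruvate transporter, had a log2 difference of -1.06 (limma adjusted p = 0.144), and its relative Slc16a7 one of -0.89, though it was well above background on only 2 of 4 Dex arrays. Pck1 (phosphoenolpyruvate carboxykinase) was at -1.08, carried by Controls 1 and 2 at 6.12 and 6.77, while Controls 3 and 4 lay at 4.79 and 4.72, near the Dex arrays, and its second probe was at 0.18. The glycerol phosphate dehydrogenase Gpd2 was at -0.65, the kinase Sik1 at -0.52 and the transcription factor Mycn at -0.54 (well above background on 4 Control and 2 Dex arrays). A second Mycn probe was at 0.27 and was not well above background on any array. Pc, pyruvate carboxylase, the other enzyme that takes pyruvate into the cycle, was at 0.60 (limma adjusted p = 0.109) and the D-lactate dehydrogenase Ldhd at 0.66. Prkaa2, a catalytic subunit of AMP-activated kinase, was at 0.80 but near background. The fructose transporter Slc2a5 was not well above background on any Control array and was so on all 4 Dex arrays, which gives at least 4.38-fold higher signal in Dex, as the Dex mean over the lowest signal well above background in Control (limma adjusted p = 0.0787).

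Promoters were read from RefSeq, build GRCr8, as 300 bases around the start of each gene, and 36 of the 39 members were matched. None of the 36 held the palindromic glucocorticoid response element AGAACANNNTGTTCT, which only 5 of all 33469 promoters (0.0149%) hold. With a motif so rare, its absence from 36 promoters says nothing about these genes. Its half-site AGAACA, on either strand, was in 4 (Aldoa, Tpi1, Gapdh and Idh1), 11.1% beside 20.7% of all promoters. The core of the hypoxia response element ACGTG, which also lies inside the E-box CACGTG, was in 17, 47.2% beside 19.3% of all promoters. The members' promoters were richer in G and C, with a median of 60.3% against 51.7%, and the motif's share was not adjusted for that. Of Pfkp, Rpia and Pdha1, none held any of these letters in this window.

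The cell makeup of the cultures was read from marker genes on the same arrays. Of 17 thymocyte markers 15 were on the array, 14 of them well above background on all 8 arrays, and 12 had a lower mean in Dex. limma called none. The signal to noise statistic called 3 of the 14 with a value on every array (beside 6.79% of all probes and 10% of those well above background on all arrays), Cd5 at -0.70, Lck at -0.68 and Ptcra at -0.61. It could not test Cd8b, which lacks a value on Control 1. The Dex arrays of Cd8b, at 16.42 to 16.51, lay above its other Control arrays, at 15.81 to 16.19, with a log2 difference of 0.52 (limma adjusted p = 0.326). The summed linear signal of the 14 markers measured on every array was 358557 to 395089 in Control. It was 387372 and 379351 on Dex 1 and 2, and 282408 and 288067 on Dex 3 and 4. This is the same split of the Dex arrays as in most of the enzymes. Cd8b, left out of the sum, did not show it. Of 14 macrophage and myeloid markers 10 had a higher mean in Dex and 4 a lower one, with a median log2 difference of 0.18. Neither test called any by its brightest probe. The complement genes C1qa, C1qb and C1qc, among the 10 with a higher mean, were at 0.72, 0.84 and 0.97. All Dex arrays of C1qc lay above all Control arrays, on its second probe too, which the signal to noise statistic called (0.45). The sum of the list was 7104 to 10106 in Control and 6614 to 13627 in Dex. Of 10 stromal markers 9 had a higher mean in Dex, and the endothelial and myeloid surface gene Pecam1 rose by 1.36 on the log2 scale (limma adjusted p = 0.0208), a call lost with the replicate block (adjusted p = 0.108) and kept in 10 of 20 alternatives (0.00302 to 0.771). With normexp its difference was 0.59. The signal to noise statistic called 2 of the 10, Pecam1 and Pdgfrb, a receptor gene of pericytes, whose Dex arrays at 3.75 to 5.60 all lay above its Control arrays at 2.28 to 3.47 but which was well above background on only 2 Control and 3 Dex arrays. The stromal sum was 970 to 1412 in Control, 973 and 875 on Dex 1 and 2 and 2043 and 1983 on Dex 3 and 4, with Pdgfra below background on every array. Erythroid markers, 3 on the array, summed to 5247 to 22944 in Control and 6092 to 28201 in Dex, and 4 B cell markers to 341 to 461 and 226 to 566. Fat cell markers, 6 on the array and Lpl below background throughout, summed to 211 to 371 in Control and 329 to 477 in Dex. Their part in the values of the 39 enzymes was not tested.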

How the data were processed

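Total RNA of each culture was labeled with Cy3 and hybridized to an Agilent Whole Rat Genome array (design 014879, 1 color). The authors deposited Feature Extraction 9.5.3.1 output with background-subtracted intensity per spot and flags for spots above background, saturated or outlying. The authors also deposited log2 values, quantile normalized and summarized per probe by median polish. Here these steps were recomputed from the intensities without outlier spots (16 missing values). The recomputed and deposited values differed by a median of at most 0.00158 per array. No spot was saturated.

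limma 3.58.1 in R 4.3.3 (lmFit, eBayes, two-sided, Benjamini-Hochberg over 41012 probes) compared 4 Dex with 4 Control arrays without a block. It was also run on simulated arrays that were independent and had the same spread in both groups. The larger spread of the Dex arrays and their split were not simulated, so that run says nothing about their effect on the calls. The signal to noise statistic used all 70 assignments of arrays, pooled over probes. The number of arrays limits the precision.

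Arrays of the same replicate number deviated together from their group means (r = 0.40, 0.13, 0.55 and 0.18 across probes for replicates 1 to 4). Some unlike numbers correlated as highly, at 0.40 for Control 1 with Dex 2, 0.19 for Control 2 with Dex 1 and 0.39 for Control 3 with Dex 4. It is thus not known whether the numbers mark pairs, and the replicate block served only as an alternative fit.

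Values on every array are given for members called by either test, for those with non-overlapping groups, and for the highest and lowest of each pathway. Genes of other enzyme, transporter and regulator lists are named where called, with up to 10 where groups did not overlap, by largest difference, and a few were to be named whatever their value, of which 1 is not reported here. The members and lists were chosen with earlier results of these data known. Alternatives covered scaling, background correction, dim probes, replicate, slide and scan day blocks, array weights, another choice of probe and left-out arrays.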

Additional observations from a re-analysis of the deposited data

Results flagged for a closer look

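In each of the 78 sets of 4 arrays (39 genes, 2 groups), the gap between the most extreme array and its nearest neighbor was set against the whole range, as in Dixon's test. A far-off array was found in 7 sets, and chance gives about 1 in 20. The gap was 0.832 of the range for Hk1 on Control 1 (11.77 against 12.26 to 12.36) and 0.923 for Hk1 on Dex 1 (12.59 against 12.41 to 12.43). The groups of Hk1 were apart by a narrow margin. For Pdhb on Control 1 it was 0.844 (12.03 against 11.81 to 11.84). The others were Pfkfb2 on Control 4 at 0.919, Pgam1 on Control 4 at 0.841, Eno2 on Control 2 at 0.918 and Pkm2 on Control 2 at 0.831. None was Pdha1, Pfkp or Rpia.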

How the results depend on the processing

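The 3 genes called by limma kept their direction under all 20 alternatives, and Pdha1 was called in 19, Pfkp in 11 and Rpia in 6. The number of members called was 1 with 75th percentile scaling, 1 with the replicate block and 0 with the slide as a fixed block, where 1 probe in all was called and only 2 arrays carry the comparison. It was 1 to 2 when an array was left out, Pdha1 each time, and Pfkp was then lost without any 1 Control array or without Dex 1 (adjusted p up to 0.0938). With the slide as a random block the estimated correlation was below 0, at -0.24. In fits added after the data were seen, the number of members called was 1 within the fuller scan day. With Dex arrays removed by pair it was 6 without Dex 1 and 2 and 11 without Dex 3 and 4. Pfkp, Rpia and Pdha1 were in both counts. Each of these pairs is more alike than the 4 arrays, and 7143 and 7388 probes in all were then called, so these counts are not read as more evidence. The median log2 fold change of the TCA cycle genes moved from -0.07 to -0.39 with the slide as a fixed block, -0.31 without Dex 1 and 2 and 0.14 without Dex 3 and 4, and that of glycolysis from 0.13 to 0.33 without Dex 3 and 4, 0.05 without Dex 1 and 2 and -0.01 with the slide as a fixed block. The cause was not tested. Of the 39 members 18 kept their sign in all 20 alternatives, and 17 also when the mean over all probes of a gene stood for it, which turned the sign of Pfkfb2, Gapdh and Cs. Beside Pfkp and Rpia, the replicate block ended the calls of Egln3 (adjusted p = 0.155) and Pecam1 (0.108), the other 2 genes of the lists that limma called. The isozyme test has too few arrays for its alternatives to say anything about stability, since paired sign flips with the replicate number as a block cannot give a p below 0.125. All 39 members were well above background on every array.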
